A study of Ceratopteris richardii with 9 samples.

Results

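The comparison described here set the root tip (RT) of the fern Ceratopteris richardii against the differentiated root (DR), which is root tissue without the tip. Its members were 6 of the 9 RNA-seq libraries of the series, 3 of RT and 3 of DR, chosen by their tissue label alone, and all 28952 transcripts in the deposited table were tested. Both groups came from wild-type sporophytes of the Hn-n strain, dissected at 45 days after fertilization from vertical cultures on sucrose medium once the third stem-borne root had emerged, with no treatment and no transgene. The tip was cut below the visible vascular strands, and every library was made from pooled roots or pooled tips, so 1 value averages over many plants and many cell types. The replicates are described as independent biological samples. The remaining 3 libraries, of shoots, did not enter the comparison.

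A fern root grows from a large apical cell at its tip, which cuts off wedge-shaped groups of cells toward the root body and a root cap toward the soil. In flowering plants such as Arabidopsis the same work is shared among several stem cells around a quiescent center. Cells behind the tip stop dividing, elongate and mature into epidermis, cortex, endodermis and vascular tissue. A comparison of RT with DR thus spans the step from a dividing meristem to a mature root. Whether DR also held forming lateral roots was not tested. In bulk tissue, fewer cells of a type and less RNA per cell cannot be told apart.

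The values in the table are estimated counts, the numbers of reads that the authors assigned to every assembled transcript with kallisto. Library totals ranged from 20065742 to 26609147 in RT and from 22767182 to 24727423 in DR, and levels are shown in CPM (counts per 1000000, with library sizes scaled by TMM factors in edgeR). CPM is not divided by transcript length, so it compares 1 transcript between segments and not different transcripts with each other. On log2(CPM + 0.5) the first principal component held 82.6% of the variance and put all RT libraries on one side (scores -96.4, -126 and -135 for replicates 1 to 3) and all DR libraries on the other (91.9, 126 and 140). Replicate 1 of each segment lay nearest to the other segment. Among 24575 transcripts that averaged at least 1 CPM in RT or in DR, the median SD between replicates on this scale was 0.27 in RT and 0.21 in DR.

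RT replicate 3 also stood apart. It alone held at least 90% of the summed CPM of 44 transcripts, and no other root library held any transcript in this way at 1 CPM or more. These 44 transcripts had 74050 counts in RT replicate 3, or 0.278% of the library, against 356 in RT replicate 1 and 43 in RT replicate 2, and 24 to 40 in each DR library. Of the 44, 9 were called higher in RT, and the others were not. All 34 transcripts with a fitted log2 fold change above 7 that missed an adjusted p of 0.05 belonged to this set, and most of them lie on the detached line at the top of the plot of fold change against level. The source of these transcripts was not tested.

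The root tip and the differentiated root differed in the level of many transcripts, in both directions. RT was tested against DR with edgeR's quasi-likelihood test, with p-values adjusted over all transcripts by the Benjamini-Hochberg method. At an adjusted p of at most 0.05, 7640 transcripts were higher in RT (26.4%) and 7575 were lower in RT (26.2%), 52.6% in all, and 13737 did not pass. Adding the study's limit of 2 on the log2 scale left 2394 higher in RT (8.27%) and 3342 lower in RT (11.5%), 19.8% in all. A test of whether the change itself exceeds 2 on the log2 scale, which asks more than an estimate past that limit, called 964 higher and 1490 lower. The median log2 fold change of all transcripts was 0.04. The scaling centers the fold changes and so bears on the balance of directions. Upper quartile factors gave 8310 higher and 7085 lower, and median-of-ratios factors 7339 higher and 7829 lower. Without RT replicate 3 the test called 6499 higher and 6778 lower, 2147 and 3124 of them past 2 on the log2 scale. Without RT replicate 1 it called 7735 higher and 7862 lower, and without DR replicate 1 it called 7288 higher and 7278 lower.

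The decreases toward the tip were on the whole the larger changes. Among the transcripts lower in RT, 957 (12.6%) changed by at least 4 on the log2 scale, against 400 (5.24%) of those higher in RT. The 9 transcripts held by RT replicate 3 and called higher all passed 2 on this scale. How many of them reached 4 was not counted. The median log2 fold change was -1.78 among the transcripts lower in RT and 1.50 among those higher in RT. Extreme cases also leaned this way. With no count in any RT library, 10 transcripts reached at least 1 CPM in every DR library, and no transcript had the opposite pattern. No test was made of the difference in size between both sets.

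**Figure D1:**
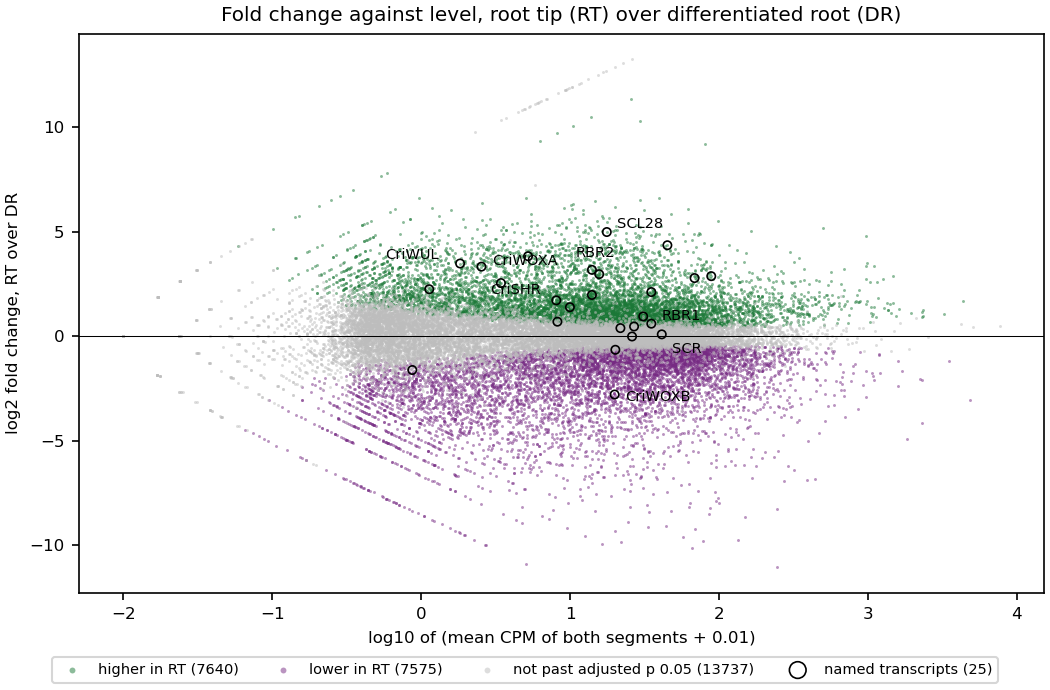
Log2 fold change of RT over DR (vertical) against the log10 of the mean CPM of both segments plus 0.01 (horizontal), 1 point per transcript for 28952 transcripts. Green points were higher in RT (7640), purple points lower (7575) and grey points not past an adjusted p of 0.05 (13737), and open circles are the 25 named transcripts. At 4 or more from 0 lie 957 purple and 400 green points, and the detached grey line at the top holds transcripts counted almost only in RT replicate 3.

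Calls were spread over the whole range of levels. Of transcripts that averaged 100 CPM or more, 31.9% were higher and 35.7% lower in RT. At 10 to under 100 CPM, these shares were 31.0% and 30.8%. Under 1 CPM only 13.1% were higher and 14.4% lower. The median standard error of the log2 fold change was 0.62 under 1 CPM against 0.21 at 100 CPM and above. Changes past 2 on the log2 scale were in contrast most frequent at 1 to under 10 CPM, where 25.6% of transcripts passed both limits, against 17.6% at 100 CPM and above.

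**Figure D2:**
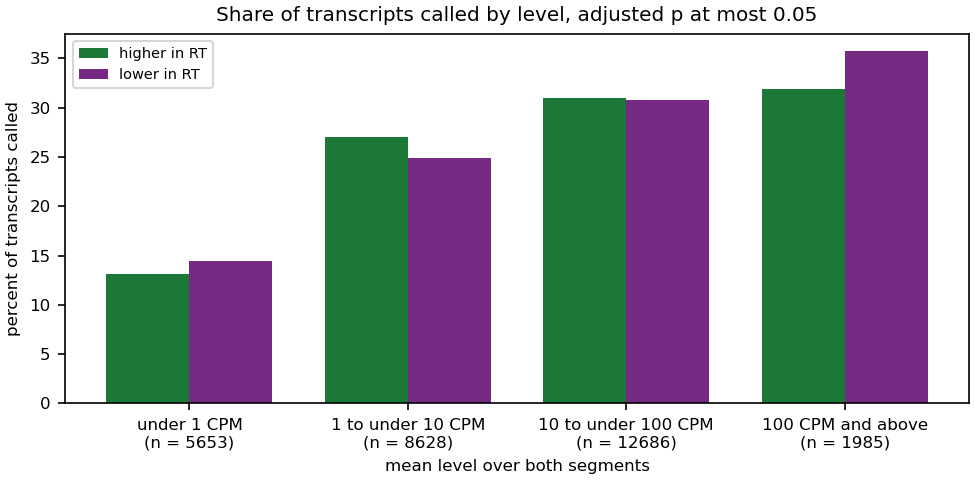
Percent of transcripts called higher (green) or lower (purple) in RT than in DR at an adjusted p of at most 0.05 (vertical), for 4 classes of mean CPM over both segments, with the number of transcripts in each. The share called is lowest under 1 CPM, at 13.1% higher and 14.4% lower.

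A transcript that misses the threshold is not thereby shown to be equal in both segments. Of the 13737 transcripts not past 0.05, 5304 had a 95% interval of the log2 fold change that lay wholly between -1 and 1, so for these a change beyond that range was outside the interval. Of the same 13737, 3570 averaged under 1 CPM in both segments, and these can overlap with the 5304.

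The transcripts that differed made up most of the RNA counted in each segment. Those higher in RT took 45.8%, 47.9% and 51.7% of the counts in RT replicates 1 to 3, and 19.5%, 17.4% and 16.8% in DR replicates 1 to 3. Those lower in RT took 18.3%, 16.4% and 14.6% in RT, against 44.4%, 49.5% and 51.2% in DR. These shares describe the weight of sets chosen by the same comparison and carry no test. Transcripts not past the threshold took 35.1% ± 1.21 of the counts in RT and 33.8% ± 2.13 in DR (SD, n = 3 each). In both segments replicate 1 had the smallest share of its own segment's transcripts and the largest share of the other's.

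**Figure D3:**
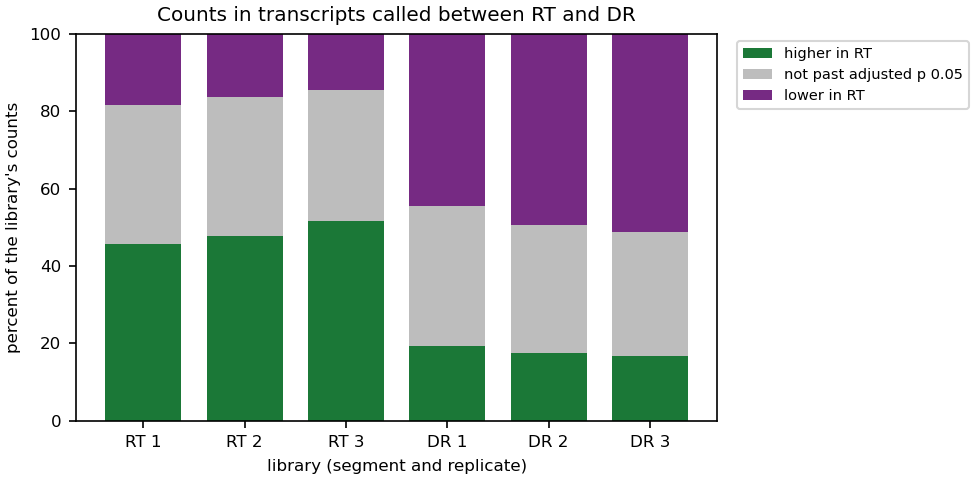
Percent of each library's counts (vertical) in transcripts called higher in RT (green), lower in RT (purple) or not past an adjusted p of 0.05 (grey), for RT replicates 1 to 3 and DR replicates 1 to 3. Green takes 45.8% to 51.7% of the RT libraries and 16.8% to 19.5% of the DR libraries.

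The RNA of both segments was spread over many transcripts. The 10 most counted transcripts of each library took 4.67% ± 0.974 of its counts in RT and 4.59% ± 0.0846 in DR (SD, n = 3 each), and the 100 most counted took 16.7% ± 2.67 in RT and 14.7% ± 0.317 in DR. The difference in the first share was 0.0829 percentage points, but 0.547 without RT replicate 1 and -0.424 without RT replicate 3, and in the second it was 1.92, but 3.1995 without RT replicate 1 and 0.539 without RT replicate 3. The number of transcripts that together held 50% of the counts was 1809, 1473 and 1273 in RT replicates 1 to 3, against 1665, 1708 and 1637 in DR. Two-sided exact permutation tests gave p = 0.9, 0.4 and 0.4 for these 3 measures, but 3 against 3 libraries cannot go below 0.1, so these p-values say nothing of equality. On these 3 measures the RT libraries differed more among themselves than the DR libraries did. Of the 100 transcripts with the highest mean CPM in RT, 45 were also among the 100 highest in DR. In the RT list 74 were higher in RT and 8 were lower, and in the DR list 57 were lower in RT and 21 were higher, against 31.9% higher and 35.7% lower among all transcripts at 100 CPM and above. The lists were picked by level in a segment, so a lean toward that segment is built in.

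The table pairs transcript numbers with no gene names. The study placed some numbers in gene families, and 25 of these are followed here. Of the 25, 16 were higher in RT, 2 were lower and 7 did not pass, against 26.4% higher and 26.2% lower among all transcripts. Their median log2 fold change was 1.98, against 0.04 over all transcripts. The study took orthologs of known Arabidopsis root genes and filtered them by adjusted p in these same libraries. It took up the WOX family because that family was expressed in the root. The count and direction of the 25 are therefore not independent evidence. In 16 of them every RT library lay above every DR library, a pattern found in 31.6% of all transcripts, and in 3 every RT library lay below, as in 30.4% of all.

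**Figure D4:**
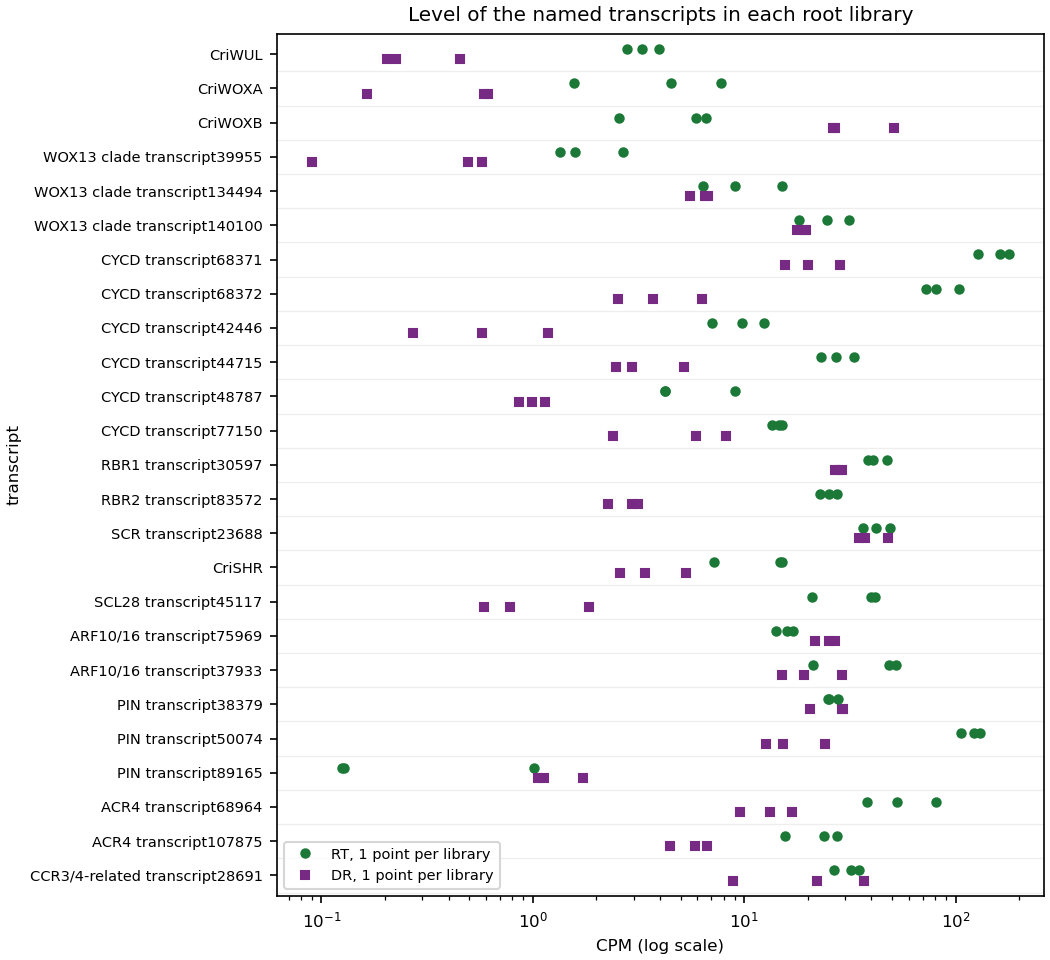
CPM on a log scale (horizontal) of the 25 named transcripts (vertical), with 1 green circle per RT library and 1 purple square per DR library. Circles and squares separate completely in 19 transcripts, and the widest gaps are those of SCL28 and CYCD transcript68372.

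WOX genes encode homeobox transcription factors that maintain stem cells in flowering plants. Of the 6 WOX transcripts 3 were higher in RT, 1 from each of 3 clades, 1 was lower and 2 did not pass, against 26.4% higher and 26.2% lower among all transcripts. The median of their log2 fold changes was 1.47.

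CriWUL (transcript86941), the fern member of the WUS clade, which holds the stem cell regulators WUSCHEL and WOX5 of Arabidopsis, had 3.96, 2.78 and 3.28 CPM in RT replicates 1 to 3 and 0.204, 0.451 and 0.226 CPM in DR. The segments did not overlap, and CriWUL differed by 3.48 in log2 units with a standard error (SE) of 0.42 (edgeR, adjusted p = 0.000458). These levels rest on 65 to 94 counts per RT library and 5 to 11 per DR library.

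CriWOXA and CriWOXB belong to the same WOX9 clade, whose Arabidopsis members act in the embryo and in meristems, and they went opposite ways. CriWOXA (transcript45206) had 1.56, 4.49 and 7.78 CPM in RT and 0.163, 0.614 and 0.587 CPM in DR, a log2 fold change of 3.33 with an SE of 0.71 (edgeR, adjusted p = 0.0056). Its RT libraries spread widely. CriWOXB (transcript86378) had 5.90, 2.57 and 6.61 CPM in RT and 51.0, 26.99 and 26.5 CPM in DR, a log2 fold change of -2.79 with an SE of 0.42 (edgeR, adjusted p = 0.0012). CriWOXB was the only named transcript lower in RT past 2 on the log2 scale. The paper contrasts its own result with earlier reports of CriWOXB in the root tip. It proposes that CriWOXB could be expressed mainly while lateral roots form, which was not tested here.

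WOX13 clade genes are the oldest branch of the family and occur throughout land plants. The WOX13 clade transcript39955 had 1.35, 1.58 and 2.66 CPM in RT and 0.572, 0.491 and 0.0903 CPM in DR. Its log2 fold change was 2.25 (edgeR, adjusted p = 0.0172). This call did not survive leaving out RT replicate 3, which gave 1.88 (adjusted p = 0.0603). The others are more open. For transcript134494 the 95% interval of the log2 fold change ran from -0.07 to 1.46 (adjusted p = 0.113) and for transcript140100 from -0.12 to 0.90 (adjusted p = 0.172), and RT and DR libraries overlapped in both. Without RT replicate 1 both passed, at 0.94 (adjusted p = 0.0286) and 0.57 (adjusted p = 0.0335).

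D-type cyclins (CYCD) bind cyclin-dependent kinases and drive entry into the cell cycle. All 6 CYCD transcripts followed here were higher in RT in every library, a pattern found in 31.6% of all transcripts. In this family 5 transcripts passed 2 on the log2 scale, against 8.27% of all transcripts. The summed level of the 6 was 253, 308 and 339 CPM in RT and 50.1, 34.3 and 24.2 CPM in DR (two-sided exact permutation test, p = 0.1, the smallest that 3 against 3 allows). Most of the mean RT sum of 300 CPM came from transcript68371 (mean 156 CPM) and transcript68372 (mean 85.9 CPM). CPM is not divided by transcript length, so the sum does not weigh the 6 transcripts equally. The study counts further CYCD transcripts, which are not analysed here.

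Within the family the size of the change varied. CYCD transcript68372 had 72.7, 81.1 and 104 CPM in RT and 6.33, 3.69 and 2.53 CPM in DR, a log2 fold change of 4.36 (95% interval 3.52 to 5.19, adjusted p = 0.000104, edgeR). Only 0.929% of all transcripts had a larger increase. CYCD transcript42446 followed at 3.83 (2.63 to 5.03), with 7.08, 12.4 and 9.73 CPM in RT and 1.18, 0.573 and 0.271 CPM in DR. The log2 fold changes of transcript44715 (2.97), transcript68371 (2.87) and transcript48787 (2.54) had overlapping 95% intervals.

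At the other end stood CYCD transcript77150, with 13.6, 14.7 and 15.1 CPM in RT and 8.21, 5.90 and 2.39 CPM in DR. Its RT libraries nearly coincided and its DR libraries were spread. Its log2 fold change was 1.39 (95% interval 0.45 to 2.33, adjusted p = 0.0215, edgeR), and its interval did not overlap those of transcript68372 or transcript42446. With fewer libraries the change was of like size but missed the threshold, at 1.38 with RT replicate 2 left out, 1.34 with RT replicate 3 left out and 1.44 with DR replicate 2 left out (adjusted p = 0.0587, 0.059 and 0.059, in that order). kallisto divides reads among similar sequences, which leaves the split between close CYCD copies uncertain.

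Retinoblastoma-related (RBR) proteins hold back cell cycle entry until CYCD kinases phosphorylate them. The study found a pair of copies in Ceratopteris, of which RBR2 was missing from most other fern transcriptomes searched. RBR2 (transcript83572) had 25.3, 22.8 and 27.6 CPM in RT and 2.94, 3.15 and 2.26 CPM in DR, a log2 fold change of 3.18 with an SE of 0.21 (edgeR, adjusted p = 6.3e-05). RBR1 (transcript30597) had 47.5, 38.7 and 40.8 CPM in RT and 29.1, 27.7 and 26.9 CPM in DR, a log2 fold change of 0.60 with an SE of 0.15 (edgeR, adjusted p = 0.0108). Both copies were higher in RT in every library, a pattern found in 31.6% of all transcripts, but by very different amounts. Leaving out DR replicate 2 ended the RBR1 call (0.59, adjusted p = 0.0531).

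The difference between both copies can be read within each library. The log2 ratio of RBR2 to RBR1 counts was -0.91, -0.76 and -0.56 in RT and -3.31, -3.13 and -3.58 in DR. It was higher in RT by 2.60, far beyond the spread between replicates of 0.17 in RT and 0.22 in DR (SD, n = 3 each, two-sided exact permutation test, p = 0.1, the smallest this design allows). This ratio does not depend on the scaling of the libraries.

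GRAS transcription factors include the regulators that set apart endodermis and cortex in Arabidopsis, where SHORT-ROOT (SHR) moves out of the vascular tissue and acts with SCARECROW (SCR). SCL28, a relative of SCR, acts in Arabidopsis during mitosis in the root meristem. Of these 3 transcripts, SCL28 and CriSHR were higher in RT, as were 26.4% of all transcripts, and SCR did not pass.

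SCL28 (transcript45117) had 21.0, 39.97 and 41.7 CPM in RT and 1.84, 0.778 and 0.587 CPM in DR. With a log2 fold change of 4.99 (95% interval 3.84 to 6.14, adjusted p = 0.000199, edgeR), it had the largest increase of the 25 named transcripts, and 136 of all transcripts had a larger one. Its lowest RT level and its highest DR level were both in replicate 1.

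CriSHR (transcript116363) had 7.20, 14.8 and 15.2 CPM in RT and 5.31, 3.40 and 2.57 CPM in DR, a log2 fold change of 1.72 with an SE of 0.39 (edgeR, adjusted p = 0.00741). SCR (transcript23688) had 48.9, 36.6 and 42.2 CPM in RT and 34.98, 47.96 and 37.1 CPM in DR. Its libraries overlapped fully. The 95% interval of the SCR difference ran from -0.34 to 0.52 on the log2 scale (adjusted p = 0.708), so at this precision a change of 1 in either direction lay outside it, while a smaller one could not be told from none.

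**Figure D5:**
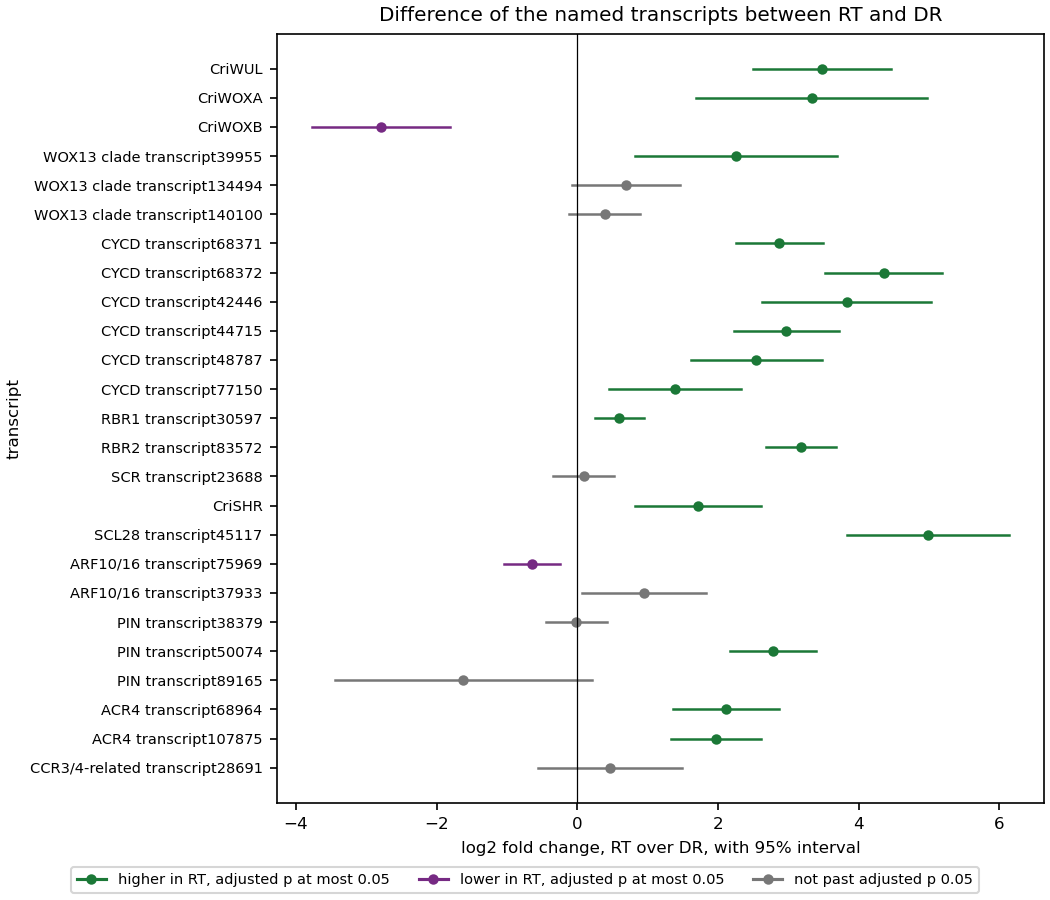
Log2 fold change of RT over DR (horizontal, points) with its 95% interval (lines) for the 25 named transcripts (vertical). Green marks transcripts higher in RT and purple those lower in RT at an adjusted p of at most 0.05, and grey those that did not pass. SCL28 lies furthest to the right at 4.99 and CriWOXB furthest to the left at -2.79.

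Auxin directs root patterning, and the auxin response factors ARF10 and ARF16 act in the root cap of Arabidopsis. Of the named transcripts, the study's text gives numbers only for CriWUL, CriWOXA and CriWOXB, and the other numbers appear only in its figures. The numbers of the ARF10/16 and PIN transcripts were read from a picture of low resolution, so their identity is less certain than that of the others. ARF10/16 transcript75969 had 17.1, 14.1 and 15.9 CPM in RT and 21.7, 26.8 and 25.2 CPM in DR. It was lower in RT by a small amount (log2 fold change -0.65, SE 0.17, edgeR adjusted p = 0.0143), and leaving out DR replicate 2 (-0.58, adjusted p = 0.0752) or DR replicate 3 (-0.62, adjusted p = 0.0515) ended the call with a change of like size.

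ARF10/16 transcript37933 had 21.3, 52.5 and 48.6 CPM in RT and 29.2, 19.1 and 15.2 CPM in DR. RT replicate 1 lay below DR replicate 1, so the segments overlapped, and the log2 fold change of 0.95 did not pass (adjusted p = 0.0673). It passed without RT replicate 1 (1.26, adjusted p = 0.0109) and without DR replicate 1 (1.25, adjusted p = 0.0298), as well as with 4 of the other settings tried.

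PIN proteins carry auxin out of cells and set the direction of its flow. Of the 3 PIN transcripts 1 was higher in RT, as were 26.4% of all transcripts, and the others did not pass. Further PIN and ARF10/16 transcripts of the study are not analysed here. PIN transcript50074 had 106, 131 and 123 CPM in RT and 24.1, 15.3 and 12.7 CPM in DR, a log2 fold change of 2.78 with an SE of 0.26 (edgeR, adjusted p = 0.00017). PIN transcript38379 had 25.3, 24.8 and 27.8 CPM in RT and 29.3, 28.9 and 20.4 CPM in DR, with a 95% interval of the log2 fold change from -0.45 to 0.42 (adjusted p = 0.961).

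PIN transcript89165 was rare in the root, with 24, 3 and 3 counts in RT replicates 1 to 3 (1.011, 0.128 and 0.1247 CPM) and 26, 42 and 25 counts in DR (1.06, 1.72 and 1.13 CPM). Every RT library lay below every DR library, RT replicate 1 only just. The log2 fold change of -1.62 did not pass (adjusted p = 0.12), and without RT replicate 1 it was -3.31 (adjusted p = 0.00273).

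ACR4 is a receptor kinase that in Arabidopsis controls formative divisions in the root meristem and root cap. Both ACR4 orthologs were higher in RT, as were 26.4% of all transcripts, and their related CCR3/4-type kinase did not pass. ACR4 transcript68964 had 37.9, 52.9 and 80.5 CPM in RT and 16.8, 13.2 and 9.57 CPM in DR, a log2 fold change of 2.12 with an SE of 0.32 (edgeR, adjusted p = 0.00126). ACR4 transcript107875 had 15.7, 23.8 and 27.6 CPM in RT and 6.70, 5.86 and 4.47 CPM in DR, a log2 fold change of 1.98 with an SE of 0.27 (edgeR, adjusted p = 0.000808). The 95% intervals of both changes overlapped widely, at 1.36 to 2.87 and 1.34 to 2.61.

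The CCR3/4-related transcript28691 had 32.0, 26.5 and 35.1 CPM in RT and 8.87, 22.1 and 36.8 CPM in DR. Its RT libraries were close together, whereas DR replicate 3 lay above all of them and DR replicate 1 far below. The 95% interval of its log2 fold change ran from -0.56 to 1.49 (adjusted p = 0.407).

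Among transcripts without a name, those past both limits whose segments did not overlap and whose higher segment averaged at least 10 CPM were ranked by fold change. The largest increases were those of transcript43634 and transcript146172. transcript43634 had 51.1, 66.7 and 116 CPM in RT and 0.899, 0.655 and 0.812 CPM in DR, a log2 fold change of 6.62 with an SE of 0.40 (edgeR, adjusted p = 5.27e-05). transcript146172 had 110, 233 and 373 counts in RT and 6, 1 and 0 counts in DR, a log2 fold change of 6.61 with an SE of 0.86 (edgeR, adjusted p = 0.000603). Both were highest in RT replicate 3 and lowest in RT replicate 1, and neither was among the 44 transcripts held by RT replicate 3. Without DR replicate 1, the only DR library with more than 1 count of transcript146172, its log2 fold change was 8.55.

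The largest decreases exceeded these increases. transcript3485 had 0.590, 0.0428 and 0.0416 CPM in RT, from 14, 1 and 1 counts, and 228, 466 and 780 CPM in DR, a log2 fold change of -11.06 with an SE of 0.94 (edgeR, adjusted p = 0.000113). Most of its few RT counts lay in replicate 1, without which the log2 fold change was -13.34. transcript85604 had no count in any RT library and 1.80, 9.71 and 18.7 CPM in DR. Up to 3 counts over the 3 RT libraries (0.0421 CPM) are allowed by a count of 0, so its mean was at least 239-fold lower in RT, a limit that covers counting error only (edgeR, adjusted p = 0.00291). Both were lowest in DR replicate 1 among the DR libraries.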

How the data were processed

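RNA-seq libraries were analysed from 3 RT and 3 DR samples. By the paper's methods and the submitters' processing notes, the authors trimmed reads (Trimmomatic 0.32), assembled and clustered the transcriptome of all libraries, quantified each library with kallisto 0.44.0 and removed transcripts with low counts with edgeR. The table that the authors deposited holds expected counts (estimated counts) per transcript, not divided by library size or length, although it is named for TPM. From 17.7% to 19.1% of the values of a root library are not whole, and they were rounded. The IDs matched 0 entries of the reference gene table, so no coordinates or sequences are given.

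A model with 1 coefficient per segment was fitted to the 6 root libraries with edgeR 4.0.16 (R 4.3.3, TMM factors, prior count 0.125, no further filter, Benjamini-Hochberg over 28952 transcripts). Each standard error (SE) was the log2 fold change over the root of its F statistic. The 95% intervals use the total degrees of freedom of the quasi-likelihood test, at most 7.65. These are the residual ones plus those that edgeR adds by sharing variance between transcripts, so the intervals are narrower than with residual ones alone. The fit was also run on simulated counts in which few transcripts changed, up and down in nearly equal number. The outcome is not given here and does not bear on the scaling or the balance of directions. Alternatives were other factors, 2 filters, DESeq2 1.42.0, limma 3.58.1 voom, a robust fit, all 9 libraries, a replicate block, prior count 1, edgeR's glmTreat and each library left out. The named transcripts were 25 with a family from the study, and the 2 largest increases and 2 largest decreases among unnamed transcripts under the rule given with them. The members and lists were chosen with earlier results of these data known. Every pair of replicates differed by far more than sampling noise (mean chi-square per transcript at least 19.1). The labels do not state that replicate numbers pair the samples, so the main fit had no replicate block.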

Additional observations from a re-analysis of the deposited data

How the results depend on the processing

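With each library left out in turn, 5586 to 7735 transcripts were higher and 5947 to 7862 lower in RT at an adjusted p of at most 0.05, and 2147 to 2667 and 2992 to 3946 with the limit of 2 on the log2 scale. The other settings except glmTreat gave 6036 to 8669 higher and 6125 to 8149 lower, and 1964 to 2596 and 2649 to 3474 past both limits. glmTreat gave 964 and 1490. With the replicate number as a block, 6036 were higher and 6125 lower, 2314 and 3004 of them past 2 on the log2 scale. The deviations of same-numbered samples correlated at -0.38, -0.08 and -0.20. With 3 replicates per segment, these values cannot decide whether same-numbered RT and DR samples were prepared together. Under the block, transcript39955 (adjusted p = 0.067) and ARF10/16 transcript75969 (adjusted p = 0.0579) missed the threshold.

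Of the named transcripts, SCR and PIN transcript38379 changed sign, both with differences near 0. The top-10 share of counts did so too, as given above. SCR ranged from -0.0230 without RT replicate 1 to 0.240 without DR replicate 2. PIN transcript38379 was at 0.0307 with library size alone, 0.0680 with upper quartile factors, 0.0018 with limma voom, 0.0174 with all 9 libraries, 0.0036 with the block, and between -0.16 and 0.0751 on leaving out 1 library. ARF10/16 transcript37933 passed 0.05 with library size alone, upper quartile factors, DESeq2 and all 9 libraries, and PIN transcript89165 with limma voom (-2.20, adjusted p = 0.033). The median SE of the log2 fold change was 0.62 under 1 CPM and 0.21 at 100 CPM and above.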

Other observations

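The 44 transcripts that RT replicate 3 held among the root libraries were looked for after the data had been seen. All 44 also had counts in SH replicate 2, one of the shoot libraries outside the comparison, which held 41193 counts of them. SH replicate 1 had 1020 counts spread over 43 of the 44, and SH replicate 3 had 70 counts. In the root libraries 33 of the 44 had no count outside RT replicate 3, and the highest reached 474 CPM there. They thus divided the libraries of 2 segments by replicate rather than by tissue. The table gives no names for these transcripts, and the source of this pattern was not tested.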
